A study of Mus musculus with 17 samples.

Results

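Islets that had lost Men1 were compared directly with islets that had lost Rbp2, with no control array in the contrast. The members are the 3 arrays whose titles name Men1flf, RIP-Cre islets and the 4 whose titles name Rbp2flf, RIP-Cre islets, which is 7 of the 17 arrays of the series. All 7 arrays are of islets with the RIP-Cre transgene, which makes Cre recombinase from the rat insulin promoter, and the mice were 2 months old and untreated. Men1 RIP-Cre mice carried floxed Men1 alleles (Men1flf) and Rbp2 RIP-Cre mice carried floxed Rbp2 alleles (Rbp2flf). The other arrays are 4 of Men1flf, Rbp2flf, RIP-Cre islets (the double knockout), 3 of RIP-Cre islets and 3 of wt islets. Total RNA came from whole islets, so alpha, delta and PP cells, vessels and remnants of exocrine tissue, where the insulin promoter is not known to act, are part of each sample. The labels number arrays as repeats and do not say that each is a separate animal, so the spread behind a p-value may be technical.

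Men1 codes for menin, a scaffold protein that brings the MLL1 and MLL2 enzymes to genes, where they add methyl groups to lysine 4 of histone H3. Rbp2, whose gene symbol is now Kdm5a, is a demethylase that takes methyl groups off the same lysine. Loss of menin lets beta cells divide and form insulinomas, and the pair of single knockouts removes the writer's partner in one genotype and an eraser in the other.

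The arrays hold no sequence of the transcripts, so promoters are shown for the genes that lead the contrast. Each is the stretch of 250 bases before to 50 after the gene's start in RefSeq on GRCm38.p6, taken for the first 2 genes at each end that have exactly 1 promoter there. The motif CCGCCC, which the DNA-binding ARID domain of human RBP2 is known to prefer, was searched on both strands and is in capitals. Lrrc55 (chr2:85198701-85199000, minus strand) and Gdpd3 (chr7:126766164-126766463, plus strand) were at least 2-fold higher in Men1 RIP-Cre islets. Dapl1 (chr2:59484403-59484702, plus strand) and Cldn4 (chr5:134946885-134947184, minus strand) were at least 2-fold lower.
Lrrc55: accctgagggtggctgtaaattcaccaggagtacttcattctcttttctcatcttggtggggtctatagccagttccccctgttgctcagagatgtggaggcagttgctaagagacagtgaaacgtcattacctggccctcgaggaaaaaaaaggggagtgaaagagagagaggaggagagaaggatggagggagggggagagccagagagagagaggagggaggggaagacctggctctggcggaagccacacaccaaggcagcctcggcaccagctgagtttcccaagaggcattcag
Gdpd3: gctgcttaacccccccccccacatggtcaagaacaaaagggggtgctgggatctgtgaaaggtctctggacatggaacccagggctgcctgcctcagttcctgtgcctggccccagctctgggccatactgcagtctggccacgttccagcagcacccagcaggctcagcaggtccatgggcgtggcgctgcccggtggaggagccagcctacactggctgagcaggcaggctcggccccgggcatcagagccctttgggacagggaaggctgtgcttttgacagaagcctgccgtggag
Dapl1: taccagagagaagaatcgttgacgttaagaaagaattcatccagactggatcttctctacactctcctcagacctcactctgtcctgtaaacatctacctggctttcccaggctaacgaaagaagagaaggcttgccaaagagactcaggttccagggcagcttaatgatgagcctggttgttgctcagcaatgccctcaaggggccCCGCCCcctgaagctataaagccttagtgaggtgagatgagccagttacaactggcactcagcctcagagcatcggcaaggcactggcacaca
Cldn4: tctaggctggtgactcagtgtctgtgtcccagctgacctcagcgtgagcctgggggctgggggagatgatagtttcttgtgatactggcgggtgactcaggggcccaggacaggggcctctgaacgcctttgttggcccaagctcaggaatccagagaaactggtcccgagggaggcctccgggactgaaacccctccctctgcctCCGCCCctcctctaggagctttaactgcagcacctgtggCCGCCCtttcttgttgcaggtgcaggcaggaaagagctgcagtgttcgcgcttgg
The motif stood at 1 place in the Dapl1 promoter and at 2 places in the Cldn4 promoter, and these letters were not found in the Lrrc55 and Gdpd3 windows. All 4 are poor in CpG, with observed over expected ratios from 0.191 for Lrrc55 to 0.324 for Cldn4, against a median of 0.619 over the 12977 tested genes with 1 promoter.

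Values are log2 intensities, 1 per gene, for 19938 genes, and a difference is the Men1 RIP-Cre mean minus the Rbp2 RIP-Cre mean on that scale with its standard error (SE). A gene is called where limma's Benjamini-Hochberg adjusted p is under 0.05. Pearson's r over all genes lay between 0.982 and 0.989 for the 9 pairs of arrays of 1 genotype and between 0.969 and 0.982 for the 12 pairs across genotypes. The median of an array was 7.86 to 7.87 in Men1 RIP-Cre islets and 7.82 to 7.98 in Rbp2 RIP-Cre islets, a difference of -0.07 that an exact two-sided permutation test over the 35 splits put at p = 0.143. Rbp2 RIP-Cre array 1 had the 7.82 and the other 3 lay at 7.96 to 7.98.

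Men1 itself had the values 8.14, 8.43 and 8.42 in Men1 RIP-Cre islets and 10.24, 10.05, 10.11 and 10.09 in Rbp2 RIP-Cre islets. The groups lay 1.62 apart at their nearest values, and the difference was -1.79 (SE 0.11, adjusted p = 3.01e-08). RIP-Cre islets lay between them at 9.31, 9.49 and 9.38, and limma also called Men1 higher in Rbp2 RIP-Cre than in RIP-Cre islets, by 0.73 (adjusted p = 0.00359). The remaining signal in Men1 RIP-Cre islets is a level over all islet cells, and fewer cells of a type and less RNA per cell cannot be told apart in whole islets. Kdm5a, the Rbp2 gene, had 9.50, 9.39 and 9.44 in Men1 RIP-Cre islets and 9.18, 9.02, 9.01 and 8.95 in Rbp2 RIP-Cre islets. These did not overlap, and the difference was 0.40 (SE 0.11, adjusted p = 0.022). Against RIP-Cre islets, at 9.37, 9.31 and 9.09, limma called neither the 0.19 of Men1 RIP-Cre (adjusted p = 0.175) nor the -0.22 of Rbp2 RIP-Cre islets (adjusted p = 0.149). The Kdm5a call ended without Men1 RIP-Cre array 1 (adjusted p = 0.098) or 3 (0.0695) and without Rbp2 RIP-Cre array 2 (0.0542), 3 (0.0543) or 4 (0.0646). Where the probes lie relative to the deleted exons was not analysed here, so the Kdm5a level may not check the Rbp2 label. The plot of the targeted genes shows a wide gap for Men1 and a narrow one for Kdm5a.

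**Figure D1:**
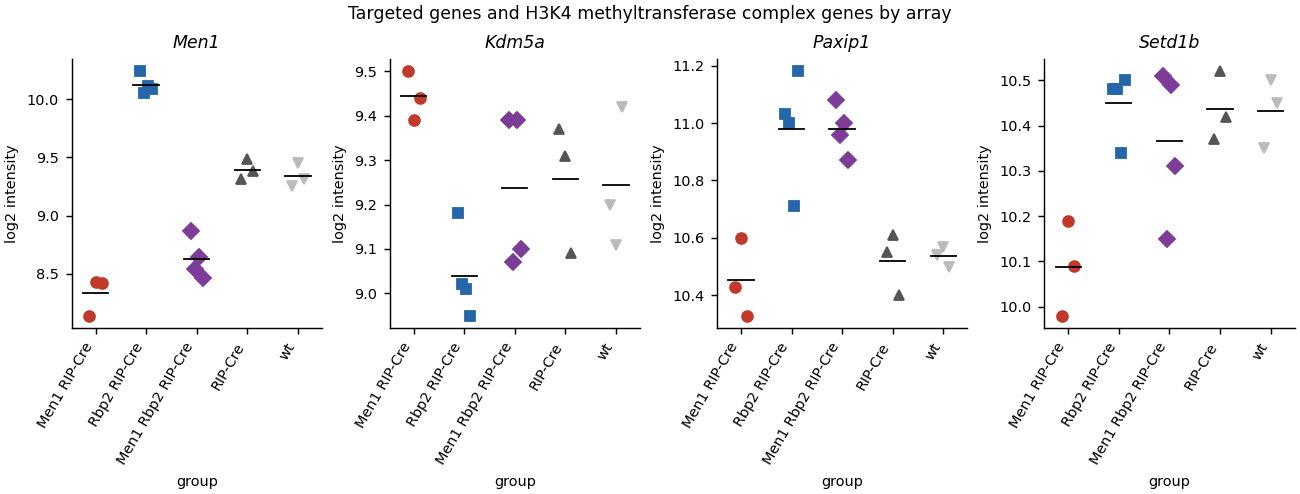
Log2 intensity of Men1, Kdm5a, Paxip1 and Setd1b on each array (points) with the group mean (bar), in Men1 RIP-Cre, Rbp2 RIP-Cre, Men1 Rbp2 RIP-Cre, RIP-Cre and wt islets. Each panel has its own vertical axis; Men1 is at 8.14 to 8.43 in Men1 RIP-Cre and at 10.05 to 10.24 in Rbp2 RIP-Cre islets, and Kdm5a lies at 9.39 to 9.50 against 8.95 to 9.18.

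Of the 19938 genes, 2547 were called (12.8%), 1138 higher (5.71%) and 1409 lower (7.07%) in Men1 RIP-Cre than in Rbp2 RIP-Cre islets. The difference reached 2-fold in 162 of them (0.813%), 81 in each direction, and the median size of a called difference was 0.48. The arrays of both genotypes did not overlap for 5552 genes (27.8%), 11.7% with Men1 RIP-Cre higher and 16.1% with it lower, and for 2463 of the called genes and all 162. Over all genes the median difference was -0.09. It depended on the level: it was -0.16 in the lowest of 10 equal bins of genes by level, with a mean level of 5.57, and 0.03 in the highest bin, at 10.69. After cyclic loess normalization these medians were -0.07 and 0.02, and 55.3% of the called genes were higher in place of 44.7%. Single arrays moved the count: it was 1076 without Men1 RIP-Cre array 1, 1375 without array 3, 3829 without Rbp2 RIP-Cre array 1, 1611 without array 2, 1653 without array 3 and 1614 without array 4. The plot of difference against level shows that small differences of low genes lean below 0 while the largest differences, on both sides, belong to genes of middle and high level.

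**Figure D2:**
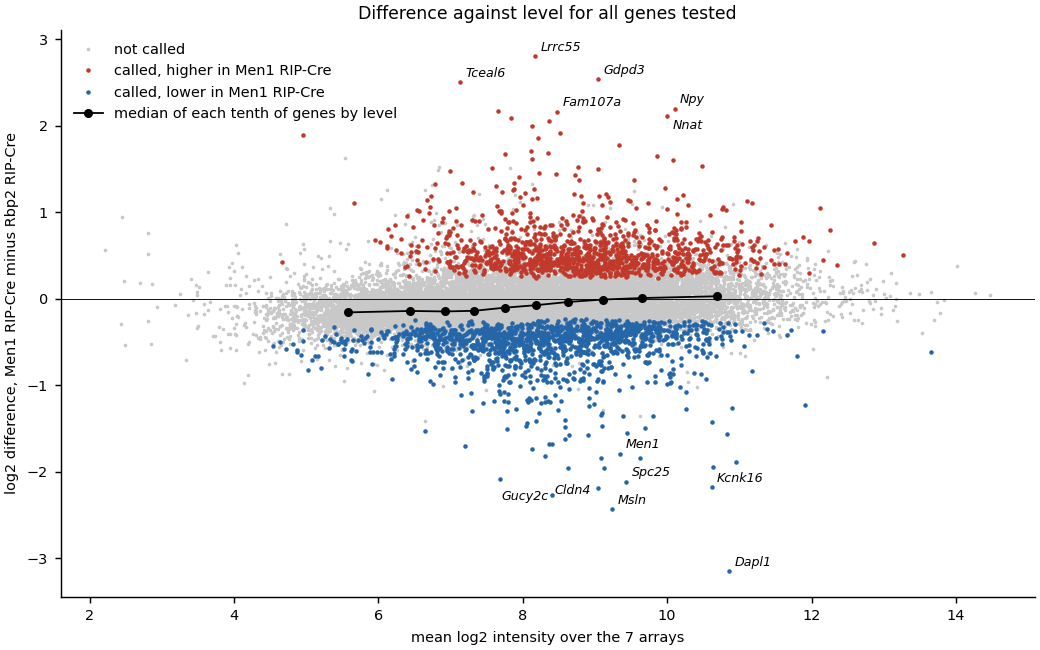
Difference (Men1 RIP-Cre minus Rbp2 RIP-Cre, log2) of each of the 19938 genes against its mean log2 intensity over the 7 arrays, with called genes in red (higher) and blue (lower). The black line joins the medians of 10 equal bins of genes by level and runs from -0.16 to 0.03; Lrrc55 at 2.80 and Dapl1 at -3.15 are the named extremes.

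The 12 genes with the highest differences were taken among called genes with established symbols and ran from 1.78 to 2.80. Lrrc55, an auxiliary subunit of large-conductance potassium channels, had 10.06, 9.56 and 9.71 in Men1 RIP-Cre islets and 6.80, 7.08, 6.95 and 7.06 in Rbp2 RIP-Cre islets. Its groups lay far apart, with a difference of 2.80 (SE 0.14, adjusted p = 3.96e-09), which is 6.98-fold. Gdpd3, a phosphodiesterase that releases lysophosphatidic acid, had 10.40, 10.74 and 10.35 in Men1 RIP-Cre islets and 7.41, 9.49, 7.45 and 7.49 in Rbp2 RIP-Cre islets. Rbp2 RIP-Cre array 2 stood nearer the Men1 RIP-Cre arrays than the others of its group did, yet no array overlapped, and the difference was 2.54 (SE 0.41, adjusted p = 0.000839). Tceal6, of a family of X-linked elongation factor relatives, had 8.83, 8.57 and 8.29 in Men1 RIP-Cre islets and 6.29, 6.04, 5.80 and 6.13 in Rbp2 RIP-Cre islets, a difference of 2.50 (SE 0.14, adjusted p = 2.09e-08). Npy, the appetite peptide that restrains insulin release, spread widely: 11.64, 10.57 and 11.86 in Men1 RIP-Cre islets and 8.06, 9.76, 9.83 and 9.00 in Rbp2 RIP-Cre islets. The groups did not overlap and limma called the difference of 2.19 (SE 0.43, adjusted p = 0.00327). Fam107a, an actin-binding stress protein of neurons, had 9.88, 9.60 and 9.66 in Men1 RIP-Cre islets and 7.49 to 7.70 in Rbp2 RIP-Cre islets (difference 2.16, adjusted p = 1.09e-07).

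The other 7 of the 12 highest differences ran from 1.78 to 2.11. No array of one genotype overlapped the other for any of them, as was so for all 162 called genes at least 2-fold different. Nnat, an imprinted proteolipid of the endoplasmic reticulum, had 11.12, 11.73 and 10.76 in Men1 RIP-Cre islets and 9.55, 9.00, 8.90 and 8.93 in Rbp2 RIP-Cre islets (difference 2.11, SE 0.31, adjusted p = 0.000343). Scd1, the desaturase that makes oleic acid, had 9.38, 9.07 and 10.16 in Men1 RIP-Cre islets and 7.30 to 7.67 in Rbp2 RIP-Cre islets (difference 2.06, SE 0.29, adjusted p = 0.000284). Cnih2, an auxiliary protein of AMPA-type glutamate receptors, had tight groups, with 9.67, 9.55 and 9.59 in Men1 RIP-Cre islets and 7.69, 7.57, 7.84 and 7.65 in Rbp2 RIP-Cre islets (difference 1.92, SE 0.09, adjusted p = 3.3e-09). Glra1, the alpha subunit of an inhibitory glycine receptor, was higher by 1.85 (adjusted p = 2.46e-05). Rit2, a small GTPase of neurons, was higher by 1.99 (adjusted p = 1.01e-06), and Kirrel3os, a transcript opposite Kirrel3, by 2.09 (adjusted p = 2.09e-08). Plagl1, an imprinted zinc finger gene, was higher by 1.78 (SE 0.26, adjusted p = 0.000422), and its Men1 RIP-Cre arrays spread over 9.96, 11.44 and 9.66 while its Rbp2 RIP-Cre arrays kept to 8.53 to 8.66.

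The 12 genes with the lowest differences were taken in the same way and ran from -1.84 to -3.15. Dapl1, a small relative of death-associated protein, had 8.21, 9.96 and 9.03 in Men1 RIP-Cre islets and 12.20, 12.27, 12.30 and 12.08 in Rbp2 RIP-Cre islets. It had the lowest of the named differences, -3.15 (SE 0.38, adjusted p = 6.54e-05), with every Men1 RIP-Cre array more than 2 below every Rbp2 RIP-Cre array. Msln, the surface glycoprotein mesothelin, had 7.29, 8.46 and 7.77 in Men1 RIP-Cre islets and 10.92, 10.39, 9.97 and 9.82 in Rbp2 RIP-Cre islets (difference -2.44, adjusted p = 0.0013). Gucy2c, the receptor for guanylin peptides, had 7.12, 7.03 and 7.19 in Men1 RIP-Cre islets and 8.98, 9.46, 9.72 and 9.37 in Rbp2 RIP-Cre islets (difference -2.27, adjusted p = 1.12e-05). Both of these surface proteins were thus separated by more than 1 on every pair of arrays. Cldn4, a tight junction claudin, had 7.75, 7.86 and 7.76 in Men1 RIP-Cre islets and 10.30, 9.74, 9.70 and 10.18 in Rbp2 RIP-Cre islets (difference -2.19, SE 0.19, adjusted p = 3.11e-06). Kcnk16, the TALK-1 background potassium channel of beta cells, had 8.95, 9.88 and 9.29 in Men1 RIP-Cre islets and 11.78, 11.58, 11.34 and 11.51 in Rbp2 RIP-Cre islets (difference -2.18, SE 0.21, adjusted p = 9.24e-06).

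The other 7 of the 12 lowest differences ran from -1.84 to -2.11, again with no overlap between genotypes. Ccnd1, the D-type cyclin that starts the cell cycle with CDK4 and CDK6, had 9.47, 10.07 and 10.09 in Men1 RIP-Cre islets and 11.96, 11.84, 11.54 and 11.72 in Rbp2 RIP-Cre islets (difference -1.89, SE 0.20, adjusted p = 1.87e-05). Spc25, a kinetochore protein, had 7.90, 7.97 and 8.80 in Men1 RIP-Cre islets and 10.53, 10.14, 9.96 and 10.72 in Rbp2 RIP-Cre islets (difference -2.11, SE 0.22, adjusted p = 1.56e-05). Scn3a, a sodium channel of the action potential, had the narrowest groups of these, at 6.44, 6.44 and 6.59 in Men1 RIP-Cre islets and 8.55, 8.61, 8.56 and 8.55 in Rbp2 RIP-Cre islets (difference -2.08, adjusted p = 1.04e-06). Prom1, the membrane protein known as CD133, differed by -1.96 (adjusted p = 7.67e-05) and Eps8l2, an actin regulator, by -1.95 (adjusted p = 1.00e-06). Pcp4, a regulator of calmodulin, differed by -1.94 (adjusted p = 0.00173). Pappa2, a protease that frees insulin-like growth factors from their binding protein, differed by -1.84 (adjusted p = 0.00133), and its 3 probe sets gave -1.84, -1.86 and -1.88. The plot of the 24 genes shows that the double knockout does not hold one place between the single knockouts: it lay with Rbp2 RIP-Cre for Lrrc55 and Pcp4, and near Men1 RIP-Cre for Tceal6.

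**Figure D3:**
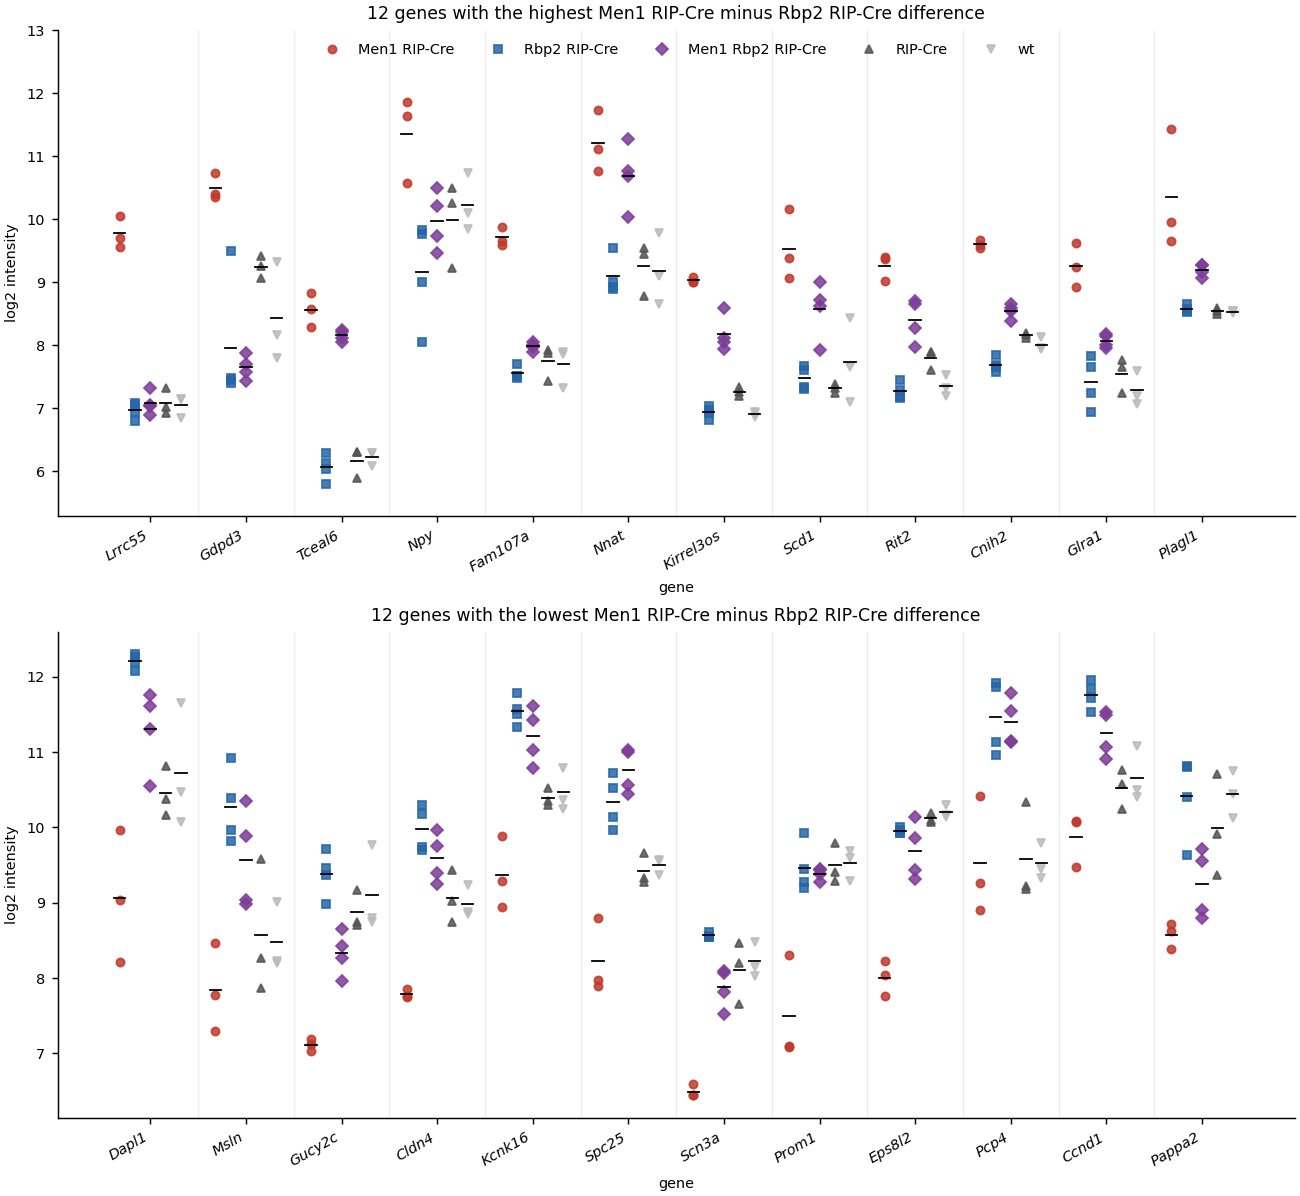
Log2 intensity on each array (points) with the group mean (bar) for the 12 genes with the highest (top) and the 12 with the lowest (bottom) difference, Men1 RIP-Cre minus Rbp2 RIP-Cre, in 5 groups ordered Men1 RIP-Cre, Rbp2 RIP-Cre, Men1 Rbp2 RIP-Cre, RIP-Cre and wt. For each of the 24 genes the 3 Men1 RIP-Cre arrays lie on one side of the 4 Rbp2 RIP-Cre arrays; Gdpd3 has 1 Rbp2 RIP-Cre array at 9.49 apart from 7.41 to 7.49.

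Some genes lay on opposite sides of RIP-Cre islets in the 2 single knockouts, and the 8 with the largest smaller change are named for each pattern. Both changes are set against the same 3 RIP-Cre arrays, so they are given side by side. Of all genes, limma called 53.5% for Men1 RIP-Cre against RIP-Cre islets and 13.4% for Rbp2 RIP-Cre against RIP-Cre islets. The array medians of RIP-Cre islets were 8.03, 7.97 and 8.16, against 7.86 to 7.87 in Men1 RIP-Cre and 7.82 to 7.98 in Rbp2 RIP-Cre islets. For 66.3% of all genes the RIP-Cre mean lay outside the 2 single knockout means, on the Rbp2 side. What this array-wide offset contributes to the changes against RIP-Cre islets was not tested. Gdpd3 was 1.25 higher with Men1 loss (adjusted p = 0.0264) and differed by -1.29 with Rbp2 loss (adjusted p = 0.0487). Lonrf2, a RING finger protein, was 0.78 higher with Men1 loss (adjusted p = 0.000412) and differed by -0.73 with Rbp2 loss (adjusted p = 0.00593). In the direct contrast Lonrf2 had 8.48, 8.33 and 8.51 in Men1 RIP-Cre islets and 6.99, 6.84, 7.14 and 6.73 in Rbp2 RIP-Cre islets, a difference of 1.52 (SE 0.12, adjusted p = 8.16e-07). Rit2, Cnih2, the secreted matrix protein Reln, the scaffold protein Mpp3, the junction protein Ajm1 and the GABA-B receptor subunit Gabbr2 followed the same pattern. The direct differences of Reln, Mpp3, Ajm1 and Gabbr2 were 0.92, 0.82, 0.85 and 0.72 (adjusted p = 8.88e-05, 2.17e-05, 0.000201 and 0.000831).

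The opposite pattern, lower with Men1 loss and higher with Rbp2 loss than in RIP-Cre islets, was seen for Men1, Dapl1, Cldn4, Kcnk16, Spc25, Otoa, Sgcd and Anpep. Dapl1 differed by -1.39 with Men1 loss (adjusted p = 0.0114) and by 1.76 with Rbp2 loss (adjusted p = 0.0163) from RIP-Cre islets, whose arrays had 10.38, 10.17 and 10.82. Kcnk16 differed by -1.02 with Men1 loss (adjusted p = 0.00284) and by 1.16 with Rbp2 loss (adjusted p = 0.00942). Anpep, the surface aminopeptidase CD13, had 7.99, 7.96 and 8.17 in Men1 RIP-Cre islets and 9.99, 9.95, 9.88 and 9.69 in Rbp2 RIP-Cre islets. Its direct difference of -1.84 (SE 0.19, adjusted p = 1.56e-05) joined a change of -0.68 with Men1 loss (adjusted p = 0.0134) and one of 1.16 with Rbp2 loss (adjusted p = 0.00696). Otoa, a protein of the inner ear, and Sgcd, a sarcoglycan of muscle membranes, differed directly by -1.74 (adjusted p = 8.44e-06) and -1.70 (adjusted p = 1.08e-05).

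The list for the writers of the lysine 4 mark held enzymes and partner subunits of the methyltransferase complexes and the menin-binding proteins Jund and Psip1. Of its 17 members 3 were called (17.6%, against 12.8% of all genes), 1 higher and 2 lower, with a median of 0.08 against -0.09 over all genes. Paxip1, the PTIP subunit of the MLL3 and MLL4 complexes, had 10.43, 10.60 and 10.33 in Men1 RIP-Cre islets and 11.03, 11.00, 10.71 and 11.18 in Rbp2 RIP-Cre islets (difference -0.53, SE 0.10, adjusted p = 0.0039). Pagr1a, which codes for the PA1 partner of PTIP, had 9.13, 9.11 and 9.13 in Men1 RIP-Cre islets and 8.80, 8.70, 8.75 and 8.80 in Rbp2 RIP-Cre islets (difference 0.36, SE 0.08, adjusted p = 0.0106). The partners thus differed in opposite directions, each without overlap between the genotypes, as was so for 96.7% of all called genes. Setd1b, a catalytic subunit, differed by -0.36 (adjusted p = 0.0193), and this call ended without Men1 RIP-Cre array 1 (adjusted p = 0.11) or 3 (0.0644) and without Rbp2 RIP-Cre array 2 (0.0514) or 4 (0.0536). The list of 10 demethylases held those of lysine 4 and related lysine demethylases. Kdm5a and the Y-linked Uty were called higher and none lower, with a median of 0.20. These counts stand against 5.71% and 7.07% of all genes, and Kdm5a is itself the gene targeted in Rbp2 RIP-Cre islets. No demethylase was called without Men1 RIP-Cre array 1 or 3 or Rbp2 RIP-Cre array 2, 3 or 4, and 4 were called higher without Rbp2 RIP-Cre array 1. Uty differed by 0.53 (adjusted p = 0.0249), and its call ended without Men1 RIP-Cre array 1 (adjusted p = 0.0938) or 3 (0.0883) and without Rbp2 RIP-Cre array 2 (0.0585), 3 (0.0782) or 4 (0.0669). The Y-linked Kdm5d and the inactive X transcript Xist were not called (differences 0.10 and -0.07, adjusted p = 0.471 and 0.63). Kdm5b, a relative of Kdm5a, and Kdm1a, a demethylase of another family, had 0.26 and 0.25 (adjusted p = 0.0618 and 0.0542).

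Beta cell transcription factors split in both directions, with 3 of 17 called higher and 2 lower and a median of -0.08. Of all genes 5.71% were called higher and 7.07% lower. Without Men1 RIP-Cre array 1 or 3 the count called higher was 1, and the count called lower was 1 without Men1 RIP-Cre array 1, 2 or 3 or Rbp2 RIP-Cre array 2 or 4. Neurod1, an activator of the insulin gene, had 11.28, 11.06 and 11.05 in Men1 RIP-Cre islets and 10.72, 10.37, 10.35 and 10.58 in Rbp2 RIP-Cre islets (difference 0.62, SE 0.13, adjusted p = 0.00607). Insm1, a zinc finger factor of endocrine differentiation, differed by 0.62 (adjusted p = 0.0129), and its call ended without Men1 RIP-Cre array 1 (adjusted p = 0.0631) or 3 (0.0511). Foxa2, a pioneer factor of endoderm, went the other way, with 9.46, 9.57 and 9.33 in Men1 RIP-Cre islets and 10.31, 10.18, 10.22 and 10.38 in Rbp2 RIP-Cre islets. The genotypes were separate for Foxa2, as for 96.7% of all called genes, and the difference was -0.82 (SE 0.10, adjusted p = 7.11e-05). Pdx1, the regulator of beta cell identity, was not called (0.29, adjusted p = 0.266).

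Of 20 genes of glucose sensing and of the receptors that tune insulin release, 5 were called higher in Men1 RIP-Cre islets and 2 lower. These counts stand against 5.71% and 7.07% of all genes, and the list median was 0.22. In the highest of 10 bins of genes by level, 174 of 1994 were called higher and 121 lower. The list was drawn up with earlier results of these data known. Receptors were called on both sides. Ffar1, the long-chain fatty acid receptor, had 10.75, 10.79 and 10.75 in Men1 RIP-Cre islets and 10.20, 9.85, 9.79 and 9.68 in Rbp2 RIP-Cre islets (difference 0.88, SE 0.15, adjusted p = 0.000973). Chrm3, the muscarinic receptor for acetylcholine, had 10.61, 11.00 and 10.85 in Men1 RIP-Cre islets and 10.34, 10.19, 10.21 and 10.28 in Rbp2 RIP-Cre islets (difference 0.565, adjusted p = 0.00121). The other 3 genes called higher, named after their values were seen, were Trpm5, a calcium-activated cation channel, at 0.80 (adjusted p = 0.00368), Slc30a8, the zinc transporter of insulin granules, at 0.50 (adjusted p = 0.00702), and Glp1r, the incretin receptor, at 0.65. The Glp1r call (adjusted p = 0.0132) ended without Men1 RIP-Cre array 1 (adjusted p = 0.063). Gpr119, the receptor for oleoylethanolamide, was lower, with 7.19, 6.96 and 7.18 in Men1 RIP-Cre islets and 8.48, 8.31, 7.87 and 8.53 in Rbp2 RIP-Cre islets (difference -1.19, SE 0.14, adjusted p = 6.15e-05). Gcgr, the glucagon receptor, differed by -0.54 (adjusted p = 0.0126), and its call ended without Men1 RIP-Cre array 1 (adjusted p = 0.076). Slc2a2, the glucose transporter GLUT2, was 12.57, 12.59 and 12.49 in Men1 RIP-Cre islets and 12.15, 12.08, 11.96 and 11.79 in Rbp2 RIP-Cre islets, a difference of 0.555 that did not pass over the 17 arrays (adjusted p = 0.0607) and passed in a fit of the 7 arrays alone (adjusted p = 0.00881).

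In the secretory machinery, 4 of 20 granin and exocytosis genes were called higher and 3 lower, against 5.71% and 7.07% of all genes. The list median was 0.08. The count called higher was 2 without Men1 RIP-Cre array 1 and 1 without array 3, and the count called lower was 1 without either of them or without Rbp2 RIP-Cre array 2. Cadps, which primes granules for release, had 10.92, 11.00 and 10.96 in Men1 RIP-Cre islets and 10.63, 10.52, 10.47 and 10.40 in Rbp2 RIP-Cre islets (difference 0.46, SE 0.09, adjusted p = 0.00506). Vamp3, a SNARE protein of recycling vesicles, differed by 0.71 (adjusted p = 0.0107), and its call ended without Men1 RIP-Cre array 1 (adjusted p = 0.0591) or 3 (0.0556). Vgf, a granin-like prohormone, had 7.08, 7.19 and 7.19 in Men1 RIP-Cre islets and 7.37, 8.03, 7.95 and 7.80 in Rbp2 RIP-Cre islets (difference -0.63, SE 0.14, adjusted p = 0.00888). Pam, the enzyme that amidates peptide hormones, differed by -0.67 (adjusted p = 0.02), and its call ended without Men1 RIP-Cre array 1 (adjusted p = 0.108) or 3 (0.0613) and without Rbp2 RIP-Cre array 2 (0.0566). Chga, the granin of the granule core, was not called (-0.17, adjusted p = 0.183).

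Channels and their modulators held some of the widest differences: 11 of 32 (34.4%) were called, 4 higher and 7 lower, with a median of -0.16. The share may be read beside the 12.8% over all genes, but Lrrc55, Kcnk16 and Scn3a were on the list with their results known. Kcnmb2, like Lrrc55 an auxiliary subunit of large-conductance potassium channels, had 10.58, 10.55 and 10.45 in Men1 RIP-Cre islets and 10.09, 9.72, 9.49 and 9.98 in Rbp2 RIP-Cre islets (difference 0.71, adjusted p = 0.00487). Kcnn3, a small-conductance calcium-activated potassium channel, was lower, with 9.23, 9.74 and 9.31 in Men1 RIP-Cre islets and 10.09, 10.59, 10.26 and 10.73 in Rbp2 RIP-Cre islets (difference -0.99, adjusted p = 0.000602). Cacna1h, the pore of a T-type calcium channel, had 7.13, 7.09 and 7.29 in Men1 RIP-Cre islets and 7.89, 7.77, 7.93 and 8.01 in Rbp2 RIP-Cre islets (difference -0.73, adjusted p = 0.00129). None of these 3 overlapped between genotypes, as was so for 96.7% of all called genes. Kcnmb2, Kcnn3 and Cacna1h were named after their values were seen. The melastatin channels lay on both sides. Trpm2, opened by ADP-ribose, had 8.36, 8.52 and 8.34 in Men1 RIP-Cre islets and 7.67, 7.49, 7.58 and 7.38 in Rbp2 RIP-Cre islets (difference 0.88, SE 0.11, adjusted p = 6.54e-05). Trpm3, opened by the steroid pregnenolone sulphate, had 7.28, 7.46 and 7.47 in Men1 RIP-Cre islets and 9.21, 9.09, 8.92 and 9.11 in Rbp2 RIP-Cre islets (difference -1.68, SE 0.11, adjusted p = 1.15e-07).

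Imprinted genes are expressed from 1 parental copy, and several control growth. They were called in 10 of 26 cases (38.5%, against 12.8% of all genes), 6 higher and 4 lower. Their median of -0.09 is also the median over all genes. The list's mean level was 8.94 to 9.11 on the 7 arrays, and 19.7% of genes were called in the bin by level with a mean of 9.11. The list was drawn up with earlier results of these data known. Igf2, the fetal growth factor, had 9.86, 9.63 and 9.42 in Men1 RIP-Cre islets and 8.13, 8.14, 8.02 and 8.18 in Rbp2 RIP-Cre islets (difference 1.52, SE 0.13, adjusted p = 3.11e-06). Grb10, an adaptor that dampens insulin and IGF receptor signalling, had 7.65, 7.70 and 7.88 in Men1 RIP-Cre islets and 9.31, 9.25, 9.29 and 9.44 in Rbp2 RIP-Cre islets (difference -1.58, SE 0.12, adjusted p = 1e-06). Both were separate by more than 1 on every pair of arrays. Sgce, a sarcoglycan, differed by -0.80 (adjusted p = 0.0124), and Nnat and Plagl1, given above, were the other leading members. Ndn, a growth suppressor of neurons, Rasgrf1, an exchange factor of Ras, and Usp29 were higher by 0.82, 0.62 and 0.57 (adjusted p = 0.00477, 0.00698 and 0.0022) and were named after their values were seen. The calls of these 8 members remained with each of the 7 arrays left out in turn. The count called lower was 2 without Men1 RIP-Cre array 1, Men1 RIP-Cre array 2 or Rbp2 RIP-Cre array 2.

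In lipid synthesis 6 of 24 genes (25%) were called higher and none lower, against 5.71% and 7.07% of all genes. The list median was 0.13, against -0.09 over all genes. In the bin of genes by level with a mean of 9.65, 158 of 1993 were called higher and 182 lower. The list was drawn up with earlier results of these data known. Fasn, Scd1, Scd2 and Elovl6 act in fatty acid synthesis, and Nsdhl and Sc5d in cholesterol synthesis. Sc5d, which makes a late step of cholesterol, had 9.71, 9.60 and 9.67 in Men1 RIP-Cre islets and 9.29, 9.13, 9.17 and 9.13 in Rbp2 RIP-Cre islets (difference 0.48, SE 0.08, adjusted p = 0.0014). Fasn, the fatty acid synthase, had 10.57, 10.46 and 10.81 in Men1 RIP-Cre islets and 10.17, 9.99, 10.10 and 9.89 in Rbp2 RIP-Cre islets (difference 0.58, adjusted p = 0.00327). Elovl6, which lengthens palmitate, and Scd2, a second desaturase, were higher by 0.82 and 0.79 (adjusted p = 0.00434 and 0.00666). Nsdhl was higher by 0.455 (adjusted p = 0.041). The Nsdhl call ended without Men1 RIP-Cre array 1 (adjusted p = 0.167) or 3 (0.152) and without Rbp2 RIP-Cre array 2 (0.0879), 3 (0.0763) or 4 (0.0886). Fasn, Elovl6, Scd2 and Nsdhl were named after their values were seen. None of Scd1, Scd2, Fasn, Elovl6 and Sc5d overlapped between the genotypes, as was so for 96.7% of all called genes. With any 1 of the 7 arrays left out each of these 5 kept its call.

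Of 31 cell cycle genes 3 were called higher and 1, Ccnd1, was called lower, with a median of 0.10. Over all genes 5.71% were called higher and 7.07% lower. Without Men1 RIP-Cre array 3 or Rbp2 RIP-Cre array 1 the count called lower was 2. Top2a, the topoisomerase of dividing cells, had 7.66, 7.50 and 7.90 in Men1 RIP-Cre islets and 6.91, 7.35, 7.09 and 6.88 in Rbp2 RIP-Cre islets (difference 0.63, adjusted p = 0.0185). The Top2a call ended without Men1 RIP-Cre array 1 (adjusted p = 0.0631) or 3 (0.0981) and without Rbp2 RIP-Cre array 4 (0.0583). Bub1, a checkpoint kinase of mitosis, differed by 0.61 (adjusted p = 0.0261), and its call ended without Men1 RIP-Cre array 2 (adjusted p = 0.0842) or 3 (0.128) and without Rbp2 RIP-Cre array 3 (0.0537) or 4 (0.0525). No cell cycle gene was called higher without Men1 RIP-Cre array 3 or without Rbp2 RIP-Cre array 4, and Mki67, the common marker of division, had 0.38 (adjusted p = 0.285). None of the 6 CDK inhibitors measured was called, with a median of -0.03. The p18 gene Cdkn2c, an activation target of menin, had 7.43, 7.52 and 7.66 in Men1 RIP-Cre islets and 7.25, 7.32, 7.0 and 7.0 in Rbp2 RIP-Cre islets (difference 0.39, adjusted p = 0.0803). Hox genes, the classic targets of MLL complexes in other tissues, were below 0 in 35 of 37 cases with a median of -0.20. Of the Hox genes 2 were called lower (5.41% of the list). Their mean level was 7.17 to 7.25 in Men1 RIP-Cre islets and 7.12, 7.46, 7.58 and 7.46 in Rbp2 RIP-Cre islets, so the groups overlapped. In the bin of genes by level with a mean of 7.33, the median difference was -0.14. With the array median as a covariate the Hox median was -0.04, against -0.01 over all genes, and the count called lower was 5 without Rbp2 RIP-Cre array 1, 1 without Men1 RIP-Cre array 3 and 0 without Men1 RIP-Cre array 1, Men1 RIP-Cre array 2 or Rbp2 RIP-Cre array 2, 3 or 4. Of 20 genes that beta cells usually keep silent, 1 was called higher and 3 lower with a median of -0.24. The count called lower was 7 without Rbp2 RIP-Cre array 1 and 1 without Men1 RIP-Cre array 2 or 3 or Rbp2 RIP-Cre array 2 or 3. Cd44, a surface receptor for hyaluronan, led these with 7.49, 7.78 and 7.73 in Men1 RIP-Cre islets and 9.21, 8.51, 8.60 and 8.87 in Rbp2 RIP-Cre islets (difference -1.13, SE 0.16, adjusted p = 0.000253).

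Genes of mitochondria and protein turnover differed little as lists. The counts of each list below may be read beside the 5.71% of all genes called higher and the 7.07% called lower. In the mitochondrial ribosome 2 of 76 members were called higher and 8 lower, with a median of -0.10, against -0.09 over all genes. Without Men1 RIP-Cre array 1 or 3 or Rbp2 RIP-Cre array 2 the count called lower was 5 and none was called higher, and without Rbp2 RIP-Cre array 1 the count called higher was 5. Mrpl24 had 9.58, 9.52 and 9.64 in Men1 RIP-Cre islets and 10.47, 10.45, 10.57 and 10.31 in Rbp2 RIP-Cre islets (difference -0.87, SE 0.11, adjusted p = 0.000111), and Mrpl46 differed by -0.69 (adjusted p = 0.000284). Respiratory complex I had 1 of 35 called higher and 2 called lower (median -0.09), and Ndufc1, the gene called higher, differed by 0.86 on the brighter of its 2 probe sets (adjusted p = 0.00616) and by 1.16 on the other. Without Rbp2 RIP-Cre array 3 the count called lower in complex I was 4. Complexes II to V had 2 of 37 called in each direction (median -0.01). The count called higher there was 5 without Rbp2 RIP-Cre array 1 and 0 without Men1 RIP-Cre array 1 or 3 or Rbp2 RIP-Cre array 2, 3 or 4. The proteasome had 3 of 31 called lower and none higher (median -0.01). Without Men1 RIP-Cre array 1 no gene was called lower in either complex I, complexes II to V, the proteasome or the protein folding list. Genes of protein folding and its stress response had 2 of 28 called lower and none higher (median -0.12), among them Ern1, the stress sensor IRE1. Ern1 had 10.57, 10.70 and 10.57 in Men1 RIP-Cre islets and 11.04, 10.98, 10.96 and 11.00 in Rbp2 RIP-Cre islets (difference -0.38, adjusted p = 0.00883), and without Men1 RIP-Cre array 1 its adjusted p was 0.0505. Interferon response genes had 3 of 20 called lower and none higher (median -0.14), and none of the 3 kept its call without Men1 RIP-Cre array 1. None of the 9 MHC class II genes was called (median -0.05). The plot of lists by function shows that every list median but that of the early response genes lies between -0.24 and 0.22, while single channel and imprinted genes reach far to either side and the lipid gene Scd1 far to the right.

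**Figure D4:**
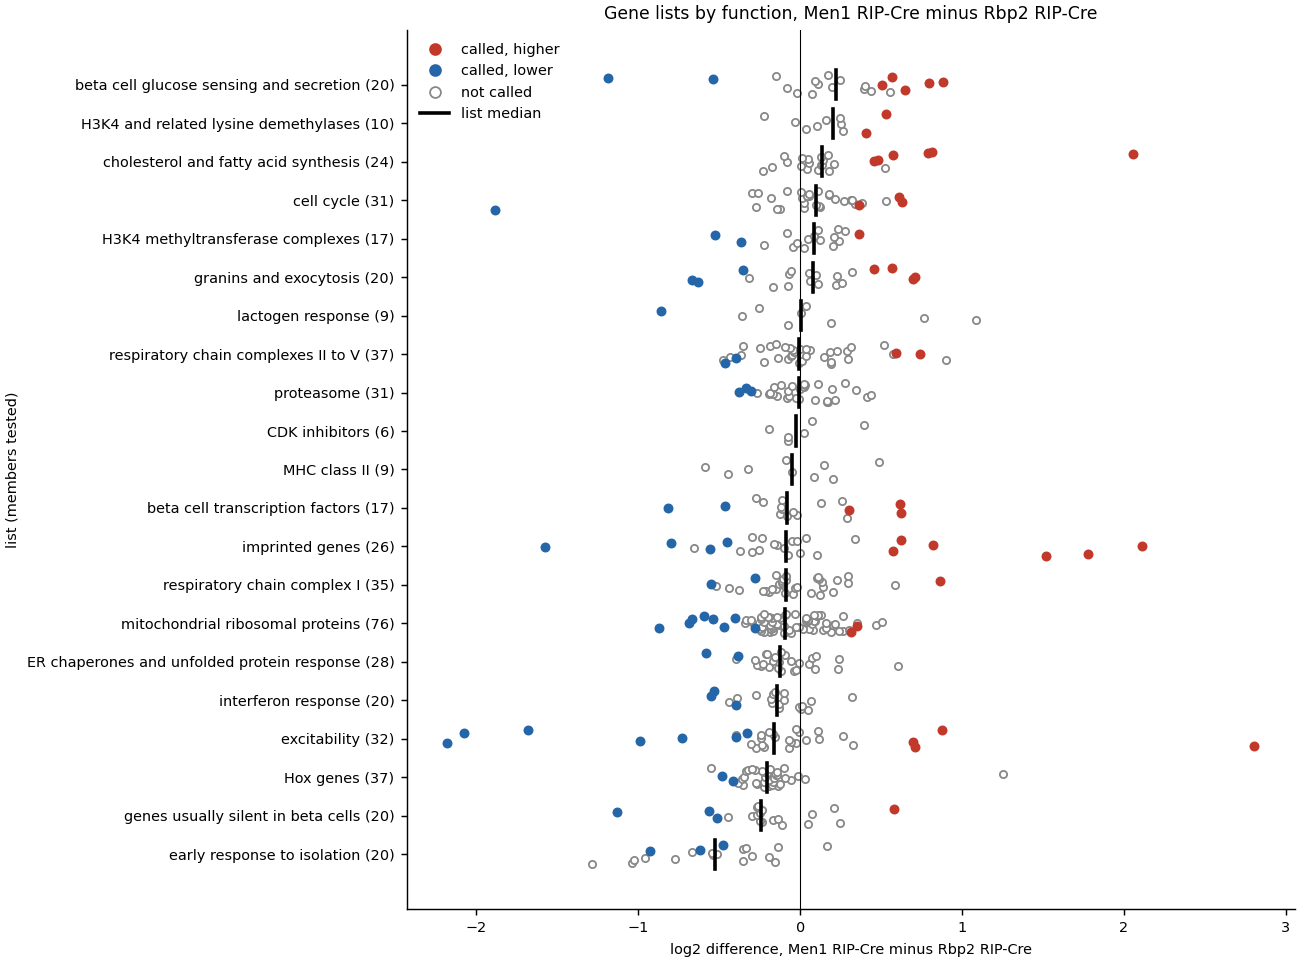
Difference (Men1 RIP-Cre minus Rbp2 RIP-Cre, log2) of each measured member of 21 gene lists, 1 row per list with the number of members in brackets, filled where called (red higher, blue lower) and open where not; the bar is the list median. Medians run from -0.53 for early response genes to 0.22 for glucose sensing and secretion, and the widest single differences are those of Lrrc55 and Nnat on the right and Kcnk16 and Scn3a on the left.

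Among the 21 lists by function the lowest median, -0.53, was that of 20 genes switched on early by tissue isolation. Of these genes 19 were below 0 and 3 were called lower, against 7.07% of all genes called lower. Their mean level was 8.50, 8.16 and 8.06 in Men1 RIP-Cre islets and 8.43, 8.56, 9.41 and 8.77 in Rbp2 RIP-Cre islets, so Rbp2 RIP-Cre array 3 stood apart, and the list median without it was -0.34. Nr4a1, an orphan nuclear receptor, had 8.08, 8.29 and 8.18 in Men1 RIP-Cre islets and 8.61, 9.36, 9.73 and 8.74 in Rbp2 RIP-Cre islets (difference -0.93, adjusted p = 0.00727). Nr4a2 differed by -0.62 (adjusted p = 0.00884), with an adjusted p of 0.0595 without Men1 RIP-Cre array 1. Fos, the best known member, overlapped, with 9.74, 7.87 and 7.51 in Men1 RIP-Cre islets and 9.10, 9.04, 11.04 and 9.46 in Rbp2 RIP-Cre islets. The count called lower was 10 without Rbp2 RIP-Cre array 1 and 2 without Men1 RIP-Cre array 2 or 3. The part of handling in the other results was not tested.

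Markers of delta and alpha cells that were called were lower in Men1 RIP-Cre islets. These and the other cell type lists below were drawn up with earlier results of these data known. All 5 delta cell markers were called lower (median -0.62), against 7.07% of all genes, and their mean level was 8.48, 8.76 and 8.80 in Men1 RIP-Cre islets and 9.42, 9.39, 9.30 and 9.33 in Rbp2 RIP-Cre islets. Lepr, the leptin receptor, had 5.62, 5.51 and 5.77 in Men1 RIP-Cre islets and 6.07, 6.38, 6.31 and 6.24 in Rbp2 RIP-Cre islets (difference -0.62, adjusted p = 0.0053). The delta cell regulator Hhex differed by -0.64 (adjusted p = 0.0116), and the hormone gene Sst had 12.92, 13.55 and 13.44 in Men1 RIP-Cre islets and 14.03, 13.92, 13.82 and 13.89 in Rbp2 RIP-Cre islets (difference -0.61, adjusted p = 0.0416). Rbp4 and the ghrelin receptor Ghsr, named after their values were seen, differed by -1.08 (adjusted p = 0.03) and -0.47 (adjusted p = 0.0131). Only Lepr kept its call with each array left out. Without Men1 RIP-Cre array 1 the adjusted p was 0.226 for Sst, 0.145 for Rbp4, 0.0741 for Hhex and 0.0783 for Ghsr. The Sst call also ended without Men1 RIP-Cre array 3 (adjusted p = 0.0717) and without Rbp2 RIP-Cre array 1 (0.0599), 2 (0.084), 3 (0.0673) or 4 (0.0804), and the Rbp4 call without Men1 RIP-Cre array 2 (0.0578) or 3 (0.0597) and Rbp2 RIP-Cre array 1 (0.0519) or 2 (0.0762).

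Of 6 alpha cell markers 3 (50%, against 7.07% of all genes) were called lower and none higher (median -0.51), and 1 was above 0, at 0.24. Ttr, transthyretin, had 11.15, 11.23 and 11.22 in Men1 RIP-Cre islets and 12.58, 12.60, 12.17 and 12.38 in Rbp2 RIP-Cre islets (difference -1.23, SE 0.23, adjusted p = 0.00208). Irx1, a homeobox factor of alpha cells, had 7.37, 7.45 and 7.48 in Men1 RIP-Cre islets and 8.04, 8.24, 8.31 and 7.96 in Rbp2 RIP-Cre islets (difference -0.70, adjusted p = 0.00217). Irx2, named after its values were seen, differed by -0.62 (adjusted p = 0.0253). The Irx2 call ended without Men1 RIP-Cre array 1 (adjusted p = 0.102), 2 (0.0685) or 3 (0.0595) and without Rbp2 RIP-Cre array 2 (0.0779) or 3 (0.0685). The alpha cell hormone Gcg had 13.15, 13.38 and 13.39 in Men1 RIP-Cre islets and 13.82, 13.80, 13.70 and 13.49 in Rbp2 RIP-Cre islets, without overlap but not called (-0.40, adjusted p = 0.103). Neither PP cell gene was called (Ppy -0.24, adjusted p = 0.517, and Pyy -0.91, adjusted p = 0.093). None of the 8 beta cell markers was called (median 0.18), and Ins2 was level, at 13.66 to 13.74 in Men1 RIP-Cre islets and 13.59 to 13.67 in Rbp2 RIP-Cre islets (difference 0.07, adjusted p = 0.477). Hormone genes lie at the top of the scale, where arrays can saturate, so their differences may be understated.

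Of 12 endothelial markers, all below 0, 6 were called lower (50%, against 7.07% of all genes), with a median of -0.35, and their mean level was 9.00, 9.13 and 9.07 in Men1 RIP-Cre islets and 9.21, 9.59, 9.40 and 9.41 in Rbp2 RIP-Cre islets. Tie1, a receptor kinase of vessels, had 8.53, 8.52 and 8.53 in Men1 RIP-Cre islets and 8.80, 9.13, 9.00 and 9.04 in Rbp2 RIP-Cre islets (difference -0.47, SE 0.08, adjusted p = 0.00195). The count of endothelial calls was 1 without Men1 RIP-Cre array 1 or 3 or Rbp2 RIP-Cre array 2, 3 without Men1 RIP-Cre array 2 or Rbp2 RIP-Cre array 4, 4 without Rbp2 RIP-Cre array 3 and 9 without Rbp2 RIP-Cre array 1. Of 9 duct markers, all below 0, 3 were called lower (33.3%, against 7.07% of all genes), with a median of -0.345. Cldn4 and Prom1, given above among the 12 lowest differences, were among these calls. The duct list, like the other marker lists, was drawn up with earlier results of these data known. The third, Krt18, named after its values were seen, differed by -0.66 (adjusted p = 0.0424). The Krt18 call ended without Men1 RIP-Cre array 1 (adjusted p = 0.161), 2 (0.075) or 3 (0.0956) and without Rbp2 RIP-Cre array 1 (0.0591), 2 (0.0821) or 3 (0.103). The duct list's mean level was 8.21, 8.41 and 8.28 in Men1 RIP-Cre islets and 9.01, 9.00, 9.00 and 9.10 in Rbp2 RIP-Cre islets. Sox9, a defining duct factor, was not called (-0.51, adjusted p = 0.15). Of 4 Schwann cell markers 2 were called lower (median -0.33), none without Men1 RIP-Cre array 1 and 3 without Rbp2 RIP-Cre array 1. Of 11 mesenchymal markers 1, Cspg4, was called lower, as was 1 of 4 adipocyte markers, Plin1, and neither call held without Men1 RIP-Cre array 1 (adjusted p = 0.0986 and 0.118). The red cell gene Alas2 was not called (-0.30, adjusted p = 0.0882).

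None of the 15 acinar markers was called although 14 were above 0 (median 0.61). Their mean level was 10.19, 8.28 and 8.84 in Men1 RIP-Cre islets and 8.07, 8.55, 9.17 and 8.21 in Rbp2 RIP-Cre islets, so Men1 RIP-Cre array 1 was the highest of the 7, and the list median without it was 0.04. Men1 RIP-Cre array 1 is also the array without which the most called genes lost their call. With the acinar mean as a covariate 3551 genes were called in place of 2547, and all 95 called genes among those named by rule kept their call. What the islets' cell makeup contributes to the other results was not tested. The plot of cell type markers shows medians from -0.62 to -0.33 for the delta, PP, alpha, endothelial, duct and Schwann cell lists. The acinar list lies to the right of 0.

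**Figure D5:**
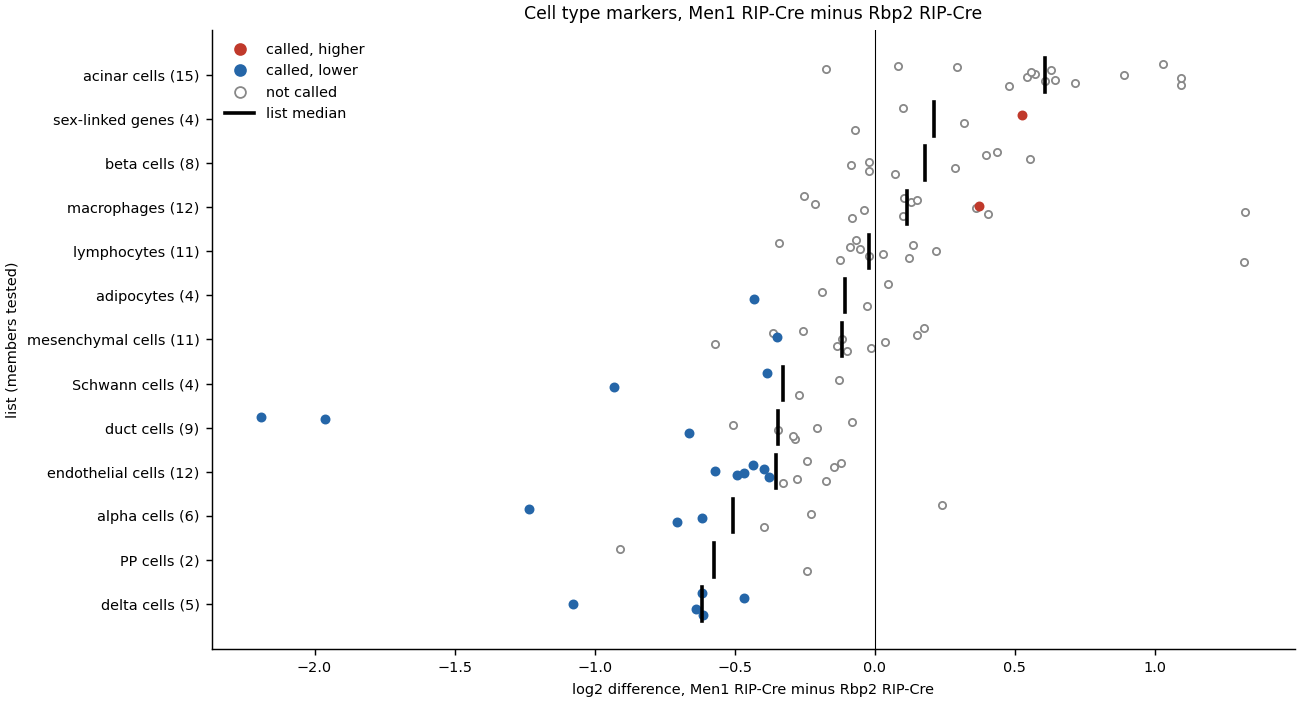
Difference (Men1 RIP-Cre minus Rbp2 RIP-Cre, log2) of each measured marker of 13 cell types or classes with more than 1 measured member, 1 row per list with the number of members in brackets, filled where called (red higher, blue lower) and open where not; the bar is the list median. The median is -0.62 for delta cells, -0.51 for alpha cells and 0.61 for acinar cells, where no marker was called.

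The double knockout was set beside the single knockouts for the same genes; these comparisons share the 7 arrays, and limma called 1.67% of all genes for the double knockout against Men1 RIP-Cre and 1.2% against Rbp2 RIP-Cre. Lrrc55 had 7.33, 7.05, 6.90 and 7.04 in the double knockout, which was -2.70 from Men1 RIP-Cre (adjusted p = 1.47e-08) and 0.11 from Rbp2 RIP-Cre islets (adjusted p = 0.861). Tceal6 had 8.12, 8.06, 8.21 and 8.25 in the double knockout, which was -0.40 from Men1 RIP-Cre (adjusted p = 0.194) and 2.095 from Rbp2 RIP-Cre islets (adjusted p = 3.2e-07). Igf2 and Grb10 lay nearer Men1 than Rbp2 RIP-Cre islets, Igf2 at 1.00 (adjusted p = 0.00059) and Grb10 at -1.12 (adjusted p = 9.08e-05) from Rbp2 RIP-Cre islets. Sgcd had 6.51, 6.26, 6.54 and 6.48 in the double knockout, 0.22 from Men1 RIP-Cre (adjusted p = 0.553) and -1.48 from Rbp2 RIP-Cre islets (adjusted p = 0.00012). Cnih2, at 8.59, 8.55, 8.39 and 8.66, was apart from both, by -1.06 from Men1 RIP-Cre (adjusted p = 1.09e-05) and 0.86 from Rbp2 RIP-Cre islets (adjusted p = 4.27e-05). Scn3a lay between as well, 1.39 from Men1 RIP-Cre (adjusted p = 0.000339) and -0.69 from Rbp2 RIP-Cre islets (adjusted p = 0.0361). Kcnk16 and Ccnd1 were 1.84 and 1.38 above Men1 RIP-Cre islets (adjusted p = 0.000225 and 0.00142). Over the called genes the double knockout's mean was nearer that of Rbp2 RIP-Cre islets for 58.3%, close to the 60.2% of all genes.

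The promoter motif was counted over all genes with 1 promoter. CCGCCC on either strand was in 67.8% of the 738 promoters of genes called higher, in 53.5% of the 868 of genes called lower and in 49.3% of the 12977 promoters of all genes tested. Promoters of brighter genes hold it more often, with 9.71% in the lowest of 10 equal bins of genes by level and 71.3% in the highest. Genes at the same levels as those called held it in 61.7% for the higher and 56.4% for the lower set. Among genes at least 2-fold different it was in 52% of 50 promoters on the higher side and 47.8% of 46 on the lower side, against 59.5% and 64.1% at the same levels. These are shares of letters in a window and were not tested.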

How the data were processed

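Total RNA from isolated islets was labelled and hybridised to Affymetrix whole-transcript arrays, per the labels' protocols. The values are log2 intensities of 35512 probe sets on 17 arrays, as deposited by the authors; how they were background-corrected and normalized, and with which software, is not given in the sources used here. Probe sets were named from GEO's platform annotation: 21789 name 1 gene, 1621 several and 12102 are not in that table. For each of 19938 genes the probe set with the highest mean over the 17 arrays was kept. limma 3.58.1 in R 4.3.3 fitted group means over all 17 arrays, and the contrast Men1 RIP-Cre minus Rbp2 RIP-Cre was adjusted by Benjamini-Hochberg over all genes. Python 3.11.15 with pandas 2.3.3 and scipy 1.17.1 made the summaries and the exact permutation test of the array medians.

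The text names Men1 and Kdm5a, the 12 called genes at each end with established symbols, up to 2 called genes per list and direction by moderated t, the largest t of a list with no call, 4 hormone genes, and 8 genes per pattern against RIP-Cre islets. Members and lists were chosen with earlier results of these data known. Simulated data held 19938 genes with independent noise, of which 50 were changed by each of 0.5, -0.5, 1 and -1. The fit called 38% of those changed by 0.5 in either direction, 98% of those changed by 1 and 92% of those changed by -1. It also called 10 unchanged genes. A smaller share of genes was changed there than the 12.8% called in the real contrast, and the adjusted p depends on that share. The simulated shares therefore do not measure how often real changes of these sizes were called. The number of arrays limits the precision. Alternatives were the 7 arrays alone, quantile or cyclic loess normalization, the array median or the acinar marker mean as covariate, a filter on level at the 25th percentile, robust variances with a trend on level, the remaining probe sets of a gene, a replicate block and leaving out each array in turn.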

Additional observations from a re-analysis of the deposited data

Results flagged for a closer look

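Dixon's test at 95% on the 4 Rbp2 RIP-Cre arrays marked 1 array in 10 of the 105 named genes, where chance marks about 1 group in 20. Array 1 was the high one for Nnat, at 9.55 against 8.90 to 9.00. It was the low one for Hoxb2, at 7.52 against 7.98 to 8.05, for the Schwann cell cadherin Cdh19, at 6.07 against 6.69 to 6.79, and for Ajm1, at 7.99 against 8.22 to 8.23. Array 2 was high for Gdpd3, at 9.49 against 7.41 to 7.49, and for Scn3a, at 8.61 against 8.55 to 8.56. Array 3 was low for Setd1b, at 10.34 against 10.48 to 10.50, and for the complex I gene Ndufs6, at 9.93 against 10.12 on each of the others. Array 4 was high for Fam107a, at 7.70 against 7.49 to 7.52, and low for the proteasome gene Psmd3, at 9.75 against 10.02 to 10.04. The 3 Men1 RIP-Cre arrays are too few for this test.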

How the results depend on the processing

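With single arrays left out, the count of called genes ran from 1076 to 3829, that of higher genes from 504 to 1503 and that of lower genes from 572 to 2326, while the count at least 2-fold different ran from 145 to 196. Over all probe sets in place of 1 per gene, 467 were at least 2-fold different. Same-numbered arrays of the 2 genotypes deviated with r = 0.03, 0.02 and 0.08, and differently numbered ones with r from -0.18 to 0.11. Deviations from a mean of 3 or 4 arrays depend on each other, so these values cannot decide whether replicate numbers pair the arrays. With the replicate number as a block 2178 genes were called, and 87 of the 95 called named genes kept their call. The other settings gave 2260 to 3551 called genes, and 55.3% of calls were higher after cyclic loess normalization, against 44.7% as deposited and 40.3% after quantile normalization. The median of all genes was -0.02 after loess and -0.01 with the array median as covariate, against -0.09. No called named gene changed direction in any of these settings, and the cause of lost calls was not tested. The contrast rests on 3 and 4 arrays, intensities near the top or bottom of the scale can understate differences, and whole islets mix cell types.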

Other observations

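Among the immune markers, Lyz2 and Cd79a did not overlap between the genotypes and were not called. The arrays of both genotypes did not overlap for 27.8% of all genes, while 12.8% of all genes were called. The macrophage and neutrophil lysozyme gene Lyz2 had 9.03, 8.47 and 9.16 in Men1 RIP-Cre islets and 7.59, 7.69, 7.52 and 7.45 in Rbp2 RIP-Cre islets (difference 1.32, limma adjusted p = 0.0681). Of the 12 macrophage markers C1qc was called higher (8.33%, against 5.71% of all genes) and none lower, with a median of 0.12. The C1qc call ended in 5 of the 7 fits with 1 array left out (largest adjusted p = 0.146). In a fit of the 7 arrays alone 3 macrophage markers were called higher, and with the array median as a covariate the count was 0. The B cell receptor gene Cd79a had 8.02, 7.58 and 6.89 in Men1 RIP-Cre islets and 6.50, 5.94, 6.32 and 5.95 in Rbp2 RIP-Cre islets (difference 1.32, limma adjusted p = 0.058), and none of the 11 lymphocyte markers was called (median -0.02).

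Genes that respond to prolactin and placental lactogen varied within the Rbp2 RIP-Cre group. Cish, a feedback inhibitor of cytokine signalling, had 8.92, 9.44 and 10.20 in Men1 RIP-Cre islets and 8.33, 8.03, 7.18 and 10.20 in Rbp2 RIP-Cre islets (difference 1.09, limma adjusted p = 0.166). Socs2, of the same family, had 10.04, 10.04 and 9.98 in Men1 RIP-Cre islets and 9.50, 8.98, 8.63 and 9.91 in Rbp2 RIP-Cre islets (difference 0.77, limma adjusted p = 0.0545). Rbp2 RIP-Cre array 4 was the highest of its group for both genes. Of the 9 genes on this list 1 was called lower, the leucine catabolism gene Ivd, and none higher, with a median of 0.00. Over all genes 5.71% were called higher and 7.07% lower. Among the 4 sex-linked genes measured Uty was called higher and none lower, with a median of 0.21, beside the same shares of all genes.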
